A study of Caenorhabditis elegans with 9 samples.

Results

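Loss of xpa-1 was examined in worms that already lacked nth-1, by setting the 2 arrays labelled nth-1;xpa-1 directly against the 3 arrays labelled nth-1. These are 5 of the 9 arrays of the series, and the other 4 carry the xpa-1 single mutant (2 arrays) and the wild type N2 (2 arrays). Every probe set that is not a control was tested, 22548 of the 22625 in the table. The worms labelled nth-1;xpa-1 carry the deletion alleles ok724 of nth-1 and ok698 of xpa-1, and those labelled nth-1 carry ok724 alone, so that the nth-1 deletion is shared by both. The deposited design text calls the strains RNAi mutants, while the methods describe deletion alleles. RNA came from mixed-stage populations grown on plates seeded with the bacterial strain HT115(DE3) and collected once the food had been cleared, and the strains had been backcrossed. Each replicate was a set of plates of its own, according to the methods, and the p-values measure the spread between these arrays. The values are log2 expression values, so a difference of 1 is a doubling.

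NTH-1 is a DNA glycosylase that starts base excision repair of oxidised pyrimidines. XPA-1 belongs to nucleotide excision repair, where the XPA protein helps to build the complex that cuts the DNA strand beside a bulky lesion. The RNA is that of whole animals of all stages and of both germ line and soma, so that fewer cells of a type and less RNA per cell cannot be told apart.

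The deleted gene, xpa-1, served as a check of the labels. It was 6.03 and 5.78 in nth-1;xpa-1, against 10.69, 10.51 and 10.35 in nth-1. Both nth-1;xpa-1 arrays lay far below all nth-1 arrays, with the double mutant at -4.61 relative to nth-1 (SE 0.27, limma adjusted p = 7.0e-05). The nth-1 transcript was 9.46 and 9.38 in nth-1;xpa-1, against 9.63, 9.58 and 9.37 in nth-1, and these ranges overlapped (-0.11, SE 0.24, adjusted p = 0.75). Where the nth-1 probes lie relative to the deletion is not given in the sources used here, so this second value checks nothing.

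A pair of technical values went with the strains. The hybridization control BioC, which is added to the labelled sample, read 9.99 and 9.755 in nth-1;xpa-1, against 8.135, 8.21 and 8.275 in nth-1. The log2 difference between the 3' and 5' probe sets of actin, a sign of RNA quality, was 2.04 and 2.1 in nth-1;xpa-1, against 1.62 to 1.76 in nth-1, and that of ubiquitin was 1.15 and 1.12 against 0.65 to 0.81. The same measure overlapped between the strains for GAPDH (2.34 and 2.47 in nth-1;xpa-1, against 1.98 to 2.54 in nth-1) and catalase (4.62 and 4.34, against 4.39 to 4.6). Strain and BioC level cannot be told apart within these 5 arrays. The xpa-1 strain alone had arrays at both levels, so a fit with the BioC level as a block leans on the difference between its 2 arrays. Of those, replicate 1 was at the high BioC level and replicate 2 at the low level. Replicate 1 correlated across probe sets at 0.912 and 0.914 with the nth-1;xpa-1 arrays, and at 0.975, 0.973 and 0.955 with the nth-1 arrays. For replicate 2 these values were 0.9164 and 0.9153, and 0.9865, 0.9773 and 0.9551. Both N2 arrays, at the high level, correlated at 0.9563 to 0.9574 with nth-1;xpa-1 and at 0.9457 to 0.9599 with nth-1. The part of the BioC level in these correlations was not tested. Within nth-1, replicate 3 stood apart, with correlations of 0.950 and 0.952 to replicates 1 and 2, which correlated with each other at 0.991. The nth-1;xpa-1 arrays correlated with each other at 0.993.

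Loss of xpa-1 in nth-1 went with a broad shift. In nth-1;xpa-1, 4890 probe sets were higher (21.7% of those tested) and 3387 lower (15%) than in nth-1 at an adjusted p under 0.05 (limma, Benjamini-Hochberg adjustment), 36.7% together. Counted over 17118 genes, each represented by its brightest probe set, 3918 rose (22.9%) and 2506 fell (14.6%). A ratio of at least 1.8 between the mean unlogged values was reached upward by 2549 (11.3%) and downward by 2621 (11.6%) probe sets, and a ratio of at least 4 by 205 and 195. The median difference over all probe sets was 0.13, and quantile normalization brought it to 0.01, with 3687 probe sets higher and 3670 lower. The BioC block left 755 probe sets higher and 322 lower (4.78% together). Of the 8277 original calls 11.6% still passed in the same direction. The sign was kept by 99.5% of them, which says little, since they were chosen for their differences on these same arrays. Without nth-1 replicate 3 the calls were 7060 higher and 4336 lower (50.5%), and with that array left out and the BioC block together they were 5115 and 3301.

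Among genes with a symbol, cpr-2, clec-52 and oac-50 rose most. For cpr-2, a cathepsin B-like cysteine protease gene, the values were 11.99 and 11.95 in nth-1;xpa-1, against 6.13, 6.21 and 8.46 in nth-1. It stood 5.04 higher (SE 0.6, limma adjusted p = 8.0e-04) with no overlap, although nth-1 replicate 3 lay above its partners. The C-type lectin gene clec-52 read 10.54 and 10.42 in nth-1;xpa-1, against 5.9, 6.14 and 5.27 in nth-1, up 4.71 (SE 0.25, adjusted p = 6.9e-05) or 25.4-fold. For oac-50, which encodes an acyltransferase-like membrane protein, the values were 10.75 and 10.74 against 6.86, 6.75 and 6.23, up 4.13 (SE 0.21, adjusted p = 6.8e-05). The strains did not overlap for either gene. The others among the 10 largest rises of genes with a symbol were droe-4 (3.8), the antimicrobial peptide gene cnc-7 (3.29), mks-6 (3.27), the guanylate cyclase gene gcy-34 (3.25), the lectin gene clec-264 (3.23), the neuropeptide gene nlp-69 (3.19) and the astacin protease gene nas-9 (3.1). With the BioC block cpr-2 and cnc-7 no longer passed (adjusted p = 0.058 and 0.086), and the other 8 did. Genes known only by a sequence name, given here after their values were seen, lay in the same range: F47B8.10 rose by 4.33 (adjusted p = 2.8e-04) and C03G6.17 by 4.0 (adjusted p = 0.0011, and 0.073 with the BioC block).

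Among genes with a symbol, folt-2, aqp-1 and hrg-7 fell most after xpa-1 itself. The aquaporin gene aqp-1, which encodes a glycerol channel, read 8.0 and 8.01 in nth-1;xpa-1, against 12.59, 12.11 and 12.15 in nth-1. It fell by 4.28 (SE 0.3, limma adjusted p = 1.2e-04) to a ratio of 0.0509. The lysosomal lipase gene lipl-3 was 7.19 and 7.5 in nth-1;xpa-1, against 11.31, 10.95 and 11.25 in nth-1, or -3.83 (SE 0.23, adjusted p = 8.3e-05). For folt-2, of the folate transporter family, the values were 5.58 and 5.82 against 10.74, 10.78 and 8.62, with nth-1 replicate 3 again on the side of the double mutant (-4.35, SE 0.66, adjusted p = 0.0019). The remaining large falls were those of cpr-8 (-3.95), the glucuronosyltransferase genes ugt-13 (-3.79) and ugt-17 (-3.75) and math-14 (-3.75), besides the heme genes described next. All 10 passed with the BioC block too. Of the genes known only by a sequence name, likewise given after their values were seen, T22F3.11 and C23G10.11 both stood at -4.85.

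**Figure D1:**
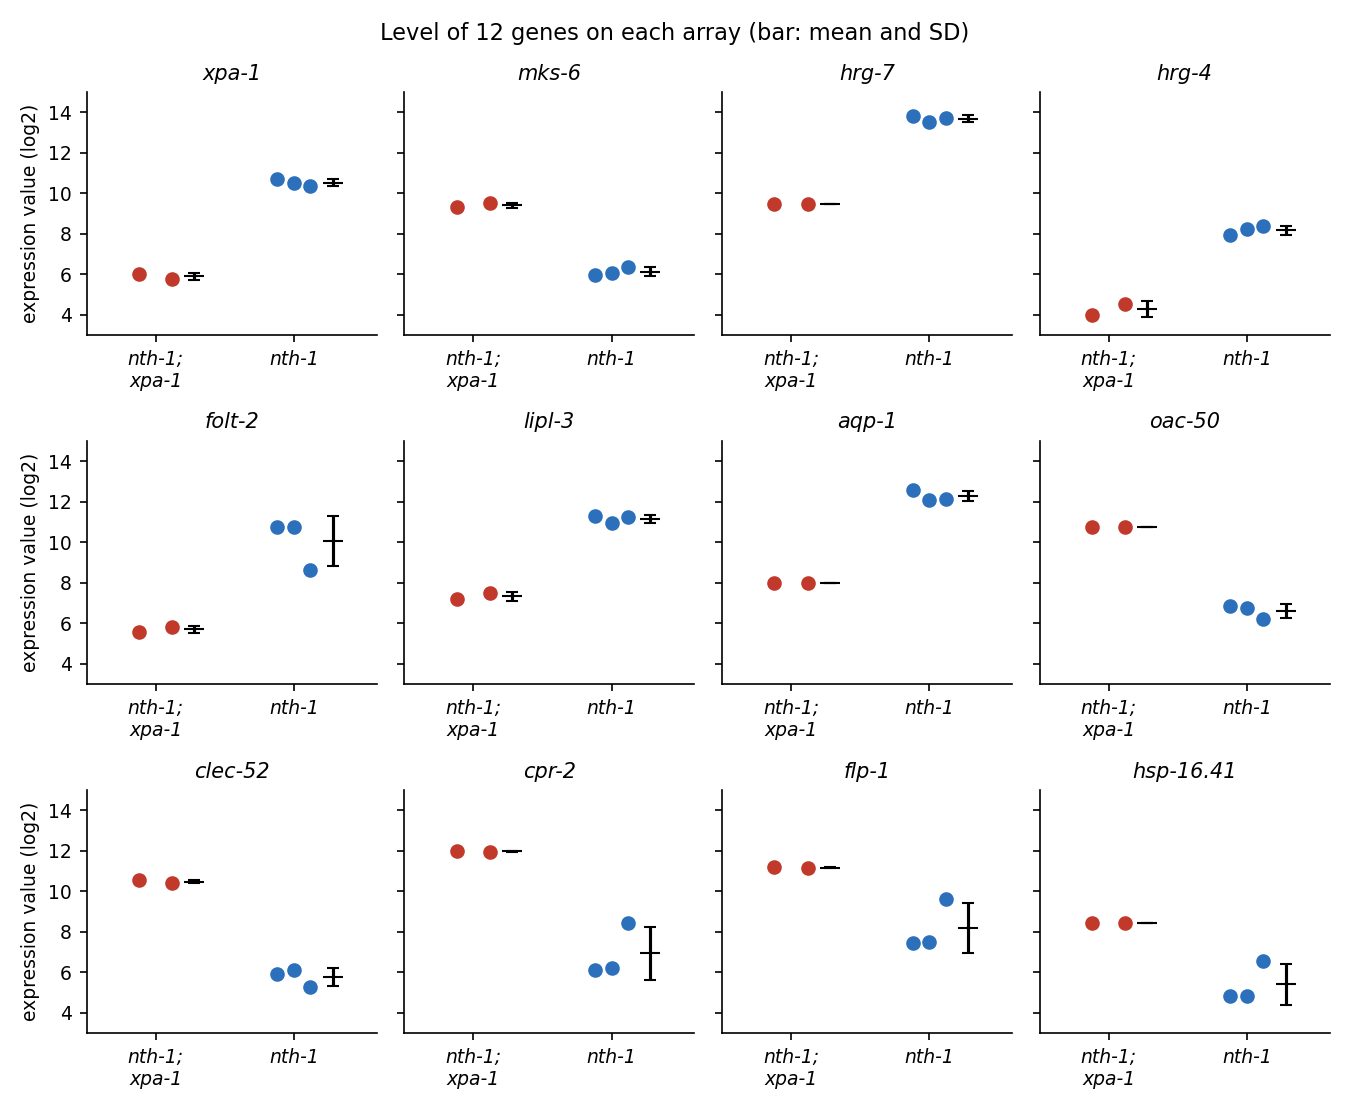
Expression value (log2, vertical axis) of 12 genes on each array, with nth-1;xpa-1 in red (2 arrays) and nth-1 in blue (3 arrays, replicates 1 to 3 from left to right); the black bar is the mean with its SD. No gene has overlapping groups, and for folt-2, cpr-2, flp-1 and hsp-16.41 nth-1 replicate 3 lies well away from its partners on the side of nth-1;xpa-1.

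Worms cannot make heme and take it up from their food, with HRG-1 and HRG-4 as importers of the intestine, HRG-3 as a carrier to the embryo and HRG-7 as a secreted protease-like protein in the signalling between tissues. All 4 genes fell. hrg-7 was 9.45 on both nth-1;xpa-1 arrays, against 13.83, 13.51 and 13.72 in nth-1 (-4.24, SE 0.12, limma adjusted p = 3.3e-06). hrg-4 was 3.99 and 4.55 in nth-1;xpa-1, against 7.92, 8.22 and 8.37 in nth-1 (-3.9, adjusted p = 6.8e-05). hrg-3 read 3.68 on both nth-1;xpa-1 arrays, against 6.84, 7.42 and 6.46 in nth-1 (-3.23, adjusted p = 3.2e-04). Each of the 3 was far lower on every nth-1;xpa-1 array than on any nth-1 array. hrg-1 was 9.03 and 8.88 in nth-1;xpa-1, against 11.55, 11.57 and 11.61 in nth-1 (-2.62, adjusted p = 5.3e-04). These 4 passed with the BioC block and without any single array. The list of 21 heme, iron and metal genes was split, with 10 higher, 11 lower and a median of -0.05. In it 7 fell (33.3%, against 14.6% of all genes) and 2 rose (9.52%, against 22.9%) at the threshold. The genes that rose were ftn-1, encoding ferritin (1.58, adjusted p = 0.0051), and the metallothionein gene mtl-1 (1.4, adjusted p = 0.0083), and neither passed without nth-1;xpa-1 replicate 1 (adjusted p = 0.0565 and 0.0648), nor mtl-1 without replicate 2. The BioC block ended both calls (adjusted p = 0.13 each).

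The gene next to xpa-1 on chromosome I in the RefSeq order rose. It is mks-6, which encodes a protein of the ciliary transition zone, and it read 9.33 and 9.5 in nth-1;xpa-1, against 5.98, 6.06 and 6.38 in nth-1. This was 3.27 higher (SE 0.2, limma adjusted p = 8.6e-05), or 9.63-fold. The neighbour on the other side, crml-1, differed by -0.12 (adjusted p = 0.68). The second gene beyond mks-6, K07G5.5, read 9.93 and 9.72 against 8.77, 8.98 and 7.86 (1.29, limma adjusted p = 0.016). K07G5.4, between them, rose by 1.13 (limma adjusted p = 0.0013), where 22.9% of all genes rose. In xpa-1 against N2 mks-6 rose by 4.21, while K07G5.4 and K07G5.5 did not pass (-0.495 and -0.305, limma adjusted p = 0.097 and 0.63). These neighbours were looked up after the values were seen.

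Genes of cell division were lower in nth-1;xpa-1. Of 35 DNA replication genes 28 fell (80%, against 14.6% of all genes) and 7 did not pass, with a median of -0.8 against 0.15 over all genes. The helicase subunit gene mcm-6 read 9.35 and 9.38 in nth-1;xpa-1, against 11.54, 11.06 and 11.01 in nth-1 (-1.84, SE 0.22, limma adjusted p = 8.4e-04). The gene rpa-1, for a subunit of the single-strand DNA binding protein, was 8.98 and 9.02 in nth-1;xpa-1, against 11.03, 10.42 and 10.68 in nth-1 (-1.71, adjusted p = 0.0012). Both were lower on every double-mutant array. The origin recognition gene orc-1 fell by 2.07 and mcm-2 by 1.57. Of 63 genes of mitosis and cytokinesis 46 fell and 17 did not pass (median -0.82). Examples were the securin gene ify-1 (9.72 and 9.82 in nth-1;xpa-1, against 11.4, 11.14 and 11.28 in nth-1, a fall by 1.5), the kinesin gene klp-10 (-1.64) and the condensin gene hcp-6 (-1.41). The kinase network around AIR-2 and PLK-1, 19 genes that the study had chosen on these same arrays and which are no independent evidence of direction, held 15 that fell and 1 that rose, the phosphatase gene gsp-2 (0.83). In it the Polo-like kinase gene plk-1 was 10.98 and 10.79 in nth-1;xpa-1, against 11.86, 11.83 and 11.93 in nth-1 (-0.99, adjusted p = 0.0013), and the Aurora B gene air-2 was 8.81 and 8.87, against 10, 9.85 and 9.53 (-0.95, adjusted p = 0.0060). The air-2 call was lost when an array of the double mutant was left out (adjusted p up to 0.059). The cyclin-dependent kinase gene cdk-1 fell by 1.22 and the cyclin gene cyb-2.1 by 1.34.

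DNA repair genes moved the same way as those of replication and mitosis. Of 53 measured, 32 fell (60.4%, against 14.6% of all genes), 1 rose and 20 did not pass, with a median of -0.71. The largest falls were those of him-6, encoding the BLM helicase (7.04 and 7.17 in nth-1;xpa-1, against 9.04, 8.58 and 9.04 in nth-1, a difference of -1.78), com-1, needed to process double-strand breaks (-1.78), and exo-3, an AP endonuclease of base excision repair (-1.64). The mismatch repair gene msh-6 was 9.2 and 9.3 in nth-1;xpa-1, against 10.82, 10.65 and 10.78 in nth-1 (-1.5, SE 0.16, limma adjusted p = 5.2e-04). The orthologs of BRCA1 and BARD1, brc-1 and brd-1, fell by 1.14 and 1.34. The study listed repair, replication and checkpoint genes from these same arrays, so they are no independent evidence of direction. Of 33 measured in that list, 25 fell (75.8%) and 2 rose (6.06%), with a median of -1.03. The checkpoint kinase gene atm-1 was the member that rose, at 6.36 and 6.51 in nth-1;xpa-1, against 5.86, 5.62 and 5.75 in nth-1 (0.69, adjusted p = 0.0056), and it did not pass without nth-1;xpa-1 replicate 2 (adjusted p = 0.059).

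The germ line lists went with them. Of 34 genes of meiotic chromosomes 21 fell (61.8%, against 14.6% of all genes) and 13 did not pass (median -0.72), among them prom-1, which promotes meiotic progression (-1.84), and dsb-1, needed for meiotic double-strand breaks (-1.65). Of 29 germ line and P granule markers 18 fell (median -0.85). In this list the P granule gene deps-1 read 9.54 and 9.44 in nth-1;xpa-1, against 11.2, 10.78 and 11.14 in nth-1 (-1.55, adjusted p = 6.8e-04), and the Nanos family gene nos-1 fell by 1.52. Of 38 oocyte and early embryo markers 22 fell and 1 rose (median -0.62), including the egg activation gene egg-3 (-1.53), the PUF family gene puf-3 (-1.46), the katanin gene mei-1 (-1.45) and the Y-box gene cey-2 (-1.64). The yolk protein gene vit-6 was 12.39 and 12.34 in nth-1;xpa-1, against 14.26, 14.14 and 14 in nth-1 (-1.77, SE 0.08, limma adjusted p = 6.2e-05). By contrast vit-1 read 9.96 and 9.97 in nth-1;xpa-1, against 13.15, 13.1 and 10.31 in nth-1, so that nth-1 replicate 3 sat beside the double mutant (-2.22, adjusted p = 0.040). That call was lost in the fit of the 5 arrays alone, under quantile normalization and on leaving out any array other than nth-1 replicate 3. With the BioC block 2 meiotic, 3 germ line and 8 oocyte genes fell, and of the genes named here nos-1 and vit-6 still passed, while prom-1, dsb-1, deps-1, egg-3, puf-3, mei-1, cey-2 and vit-1 did not (adjusted p = 0.056 to 0.34). Without nth-1 replicate 3 the falls were 29, 20 and 22, and 8 oocyte genes rose. Of all 17118 genes, 1.44% fell with the BioC block, and 3265 fell and 5611 rose (32.8%) without nth-1 replicate 3.

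**Figure D2:**
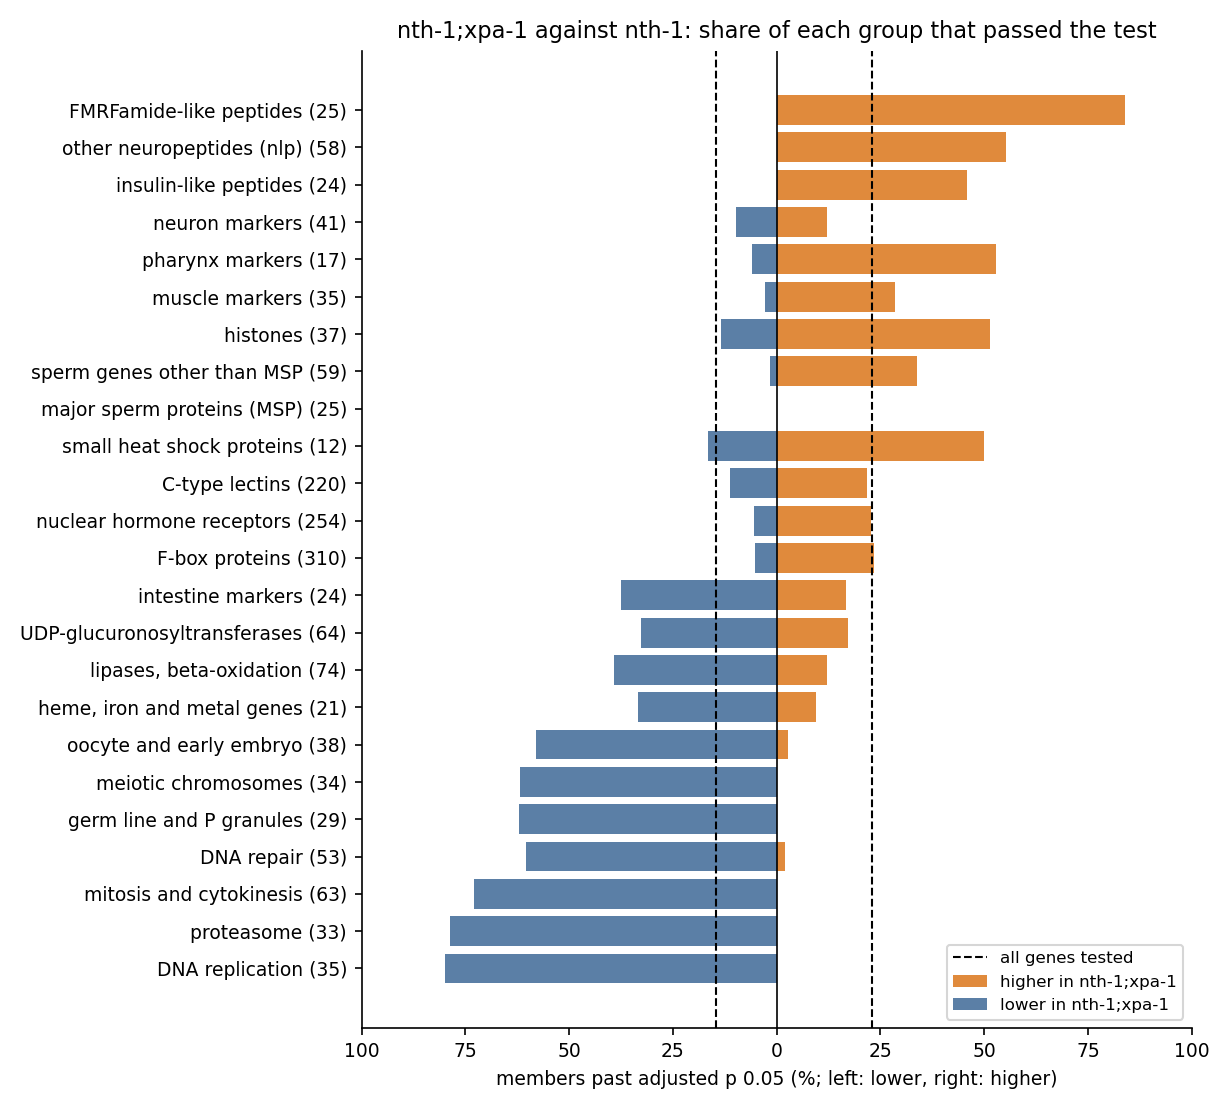
Share of the measured members of 24 groups of genes (number of members in brackets) that passed an adjusted p of 0.05, with members higher in nth-1;xpa-1 to the right and members lower in nth-1;xpa-1 to the left, in percent. The dashed lines mark all genes, 22.9% higher and 14.6% lower; DNA replication lies farthest to the left at 80%.

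Most proteasome genes fell. Of 33 measured, 26 fell (78.8%, against 14.6% of all genes) and 7 did not pass, with a median of -0.85. Averaged over the 33 genes, the level was 10.6 and 10.4 in nth-1;xpa-1, against 11.4, 11.2 and 11.2 in nth-1, and for 30 genes every nth-1;xpa-1 array lay below every nth-1 array, which holds for 23.7% of all genes. The lid subunit gene rpn-5 was 9.57 and 9.61 in nth-1;xpa-1, against 11.08, 10.69 and 10.82 in nth-1 (-1.27, SE 0.19, limma adjusted p = 0.0018), and the core subunit gene pas-7 fell by 1.26 (adjusted p = 0.0016). Ribosomal protein genes did not share this: of 62 measured, 1 fell (1.61%) and 7 rose (11.3%, against 22.9% of all genes), with a median of 0.04.

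How firm these counts are depended on the BioC level and on each nth-1;xpa-1 array. None of the 35 replication genes passed in limma once the BioC block was added. Of them 22 were lower before adjustment (p under 0.05), and the list's median was -0.92. The block left 10 of the mitosis genes, 5 of the repair genes and 1 proteasome gene as falls, with medians of -0.82, -0.75 and -0.64, where 1.44% of all genes fell. With nth-1 replicate 3 left out as well, the block gave 28, 43, 32 and 19 falls in these 4 lists, where 15.2% of all genes fell. With 1 nth-1;xpa-1 array left out, and the lone array assumed to vary like the other groups, falls numbered 17 and 15 (without replicate 1 and without replicate 2) for replication, 26 and 24 for mitosis, 18 and 16 for repair, 9 and 6 for meiosis, 11 and 10 for the germ line and 21 and 12 for the proteasome.

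**Figure D3:**
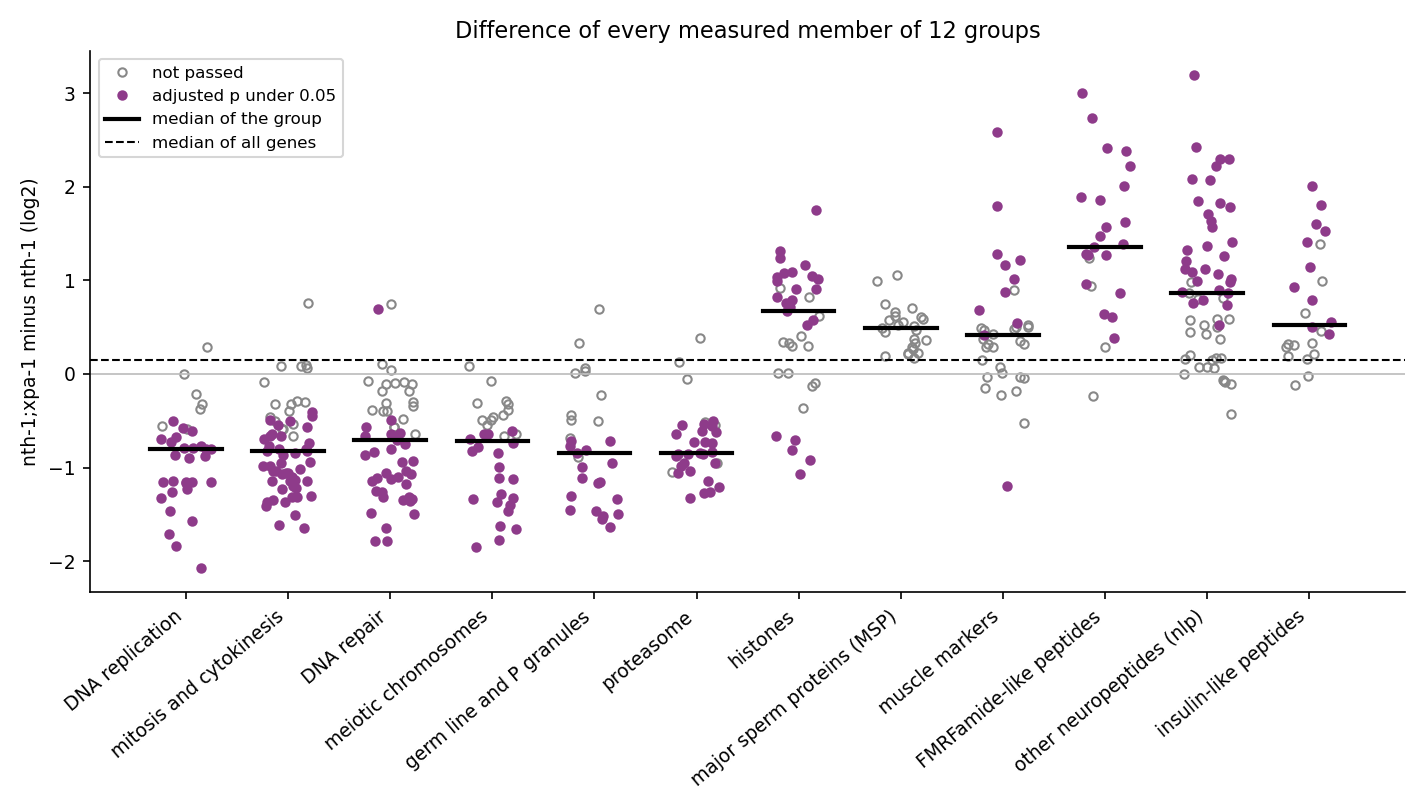
Difference between nth-1;xpa-1 and nth-1 (log2, vertical axis) for every measured member of 12 groups, filled where the adjusted p was under 0.05 and open where it was not. The black lines are group medians, from -0.85 for proteasome and germ line genes to 1.36 for FMRFamide-like peptides, and the dashed line is the median of all genes, 0.15.

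Of 37 histone genes measured, 19 rose (51.4%, against 22.9% of all genes), and the median was 0.68. Another 5 fell, a share of 13.5% that was near the 14.6% of all genes. The risers included his-71 and his-70, of the H3.3 class: his-71 was 9.8 and 9.58 in nth-1;xpa-1, against 7.46, 7.77 and 8.57 in nth-1 (1.76, adjusted p = 0.0029), and his-70 was 8.07 and 8.04 against 6.83, 7.0 and 6.41 (1.31, adjusted p = 0.0033). Among those that fell were the centromeric histone gene cpar-1 (-1.06) and the H2A.Z gene htz-1 (-0.81). Core histone genes are near-identical copies whose probe sets can share targets, so their number is uncertain. The BioC block left 1 histone gene that rose and 1 that fell, and without nth-1 replicate 3 the rises were 24. Leaving out nth-1;xpa-1 replicate 1 gave 9 that rose, and leaving out replicate 2 gave 7.

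Of the lists described here, the flp neuropeptide genes had the highest share that rose. The flp genes encode FMRFamide-like peptides released by neurons, and of 25 measured 21 rose and 4 did not pass (84.0%, against 22.9% of all genes), with a median of 1.36. flp-1, whose peptides act on locomotion, was 11.2 and 11.15 in nth-1;xpa-1, against 7.43, 7.5 and 9.6 in nth-1 (3.0, SE 0.59, limma adjusted p = 0.0056). flp-12 was 10.81 on both nth-1;xpa-1 arrays, against 7.8, 7.89 and 9.49 in nth-1 (2.42, adjusted p = 0.0047). flp-8 and flp-19 rose by 2.73 and 2.38. For all 4 the nth-1;xpa-1 arrays agreed closely and nth-1 replicate 3 lay between them and its partners, a position it held for 21 of the 25 flp genes (84.0%) and for 26.3% of all genes. Probe sets of 1 gene differed in size: the second probe set of flp-19 gave 0.21, and the smaller of the 2 for flp-8 gave 0.79.

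The other peptide families followed. The nlp genes encode neuropeptide-like proteins of other kinds. Of 58 measured, 32 rose (55.2%, against 22.9% of all genes) and 26 did not pass (median 0.87). In nth-1;xpa-1 nlp-69 was 10.95 and 10.89, against 7.22, 7.59 and 8.38 in nth-1, while nlp-52 was 9.54 and 9.49 against 6.87, 6.73 and 7.67 (2.43, adjusted p = 7.2e-04) and nlp-49 rose by 2.3. Of 24 insulin-like peptide genes, which encode ligands of the receptor DAF-2, 11 rose (45.8%) and 13 did not pass (median 0.53). ins-1 was 9.37 and 9.33 in nth-1;xpa-1, against 7.26, 7.34 and 8.04 in nth-1 (1.8, SE 0.24, adjusted p = 0.0012), and ins-37 was 8.54 and 8.25 against 6.81, 7.07 and 6.5 (1.6, adjusted p = 0.0014). ins-7 was 9.81 and 9.69 in nth-1;xpa-1, against 6.93, 7.12 and 9.16 in nth-1, and its rise of 2.01 (adjusted p = 0.023) did not pass on leaving out nth-1 replicate 1 or 2, or any array of the double mutant (adjusted p up to 0.12). Of 41 general markers of neurons 5 rose (12.2%) and 4 fell (9.76%), with a median of 0.24. Both shares were below the 22.9% and 14.6% of all genes. Without nth-1 replicate 3, 17 rose and 5 fell (median 0.41), where 32.8% of all genes rose. Among 20 genes of the insulin pathway within the cell, 2 rose (10%) and 3 fell (15%), against 7 and 4 without that array.

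These peptide counts rested on few arrays. Under the BioC block 1 flp gene, 4 nlp genes and 1 insulin-like gene still rose, where 3.58% of all genes did, with medians of 0.93, 0.68 and 0.37. The flp count was 7 without nth-1;xpa-1 replicate 1 and 8 without replicate 2, and it was 12 without either nth-1 replicate 1 or nth-1 replicate 2. For nlp genes the counts without the nth-1;xpa-1 arrays were 15 and 18, and for insulin-like genes 3 each, against 6 without nth-1 replicate 1 or nth-1 replicate 2. Without nth-1 replicate 3 they were 22, 40 and 15 for the 3 families (32.8% of all genes rose), and 20, 34 and 11 with the BioC block in addition (23.2%).

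**Figure D4:**
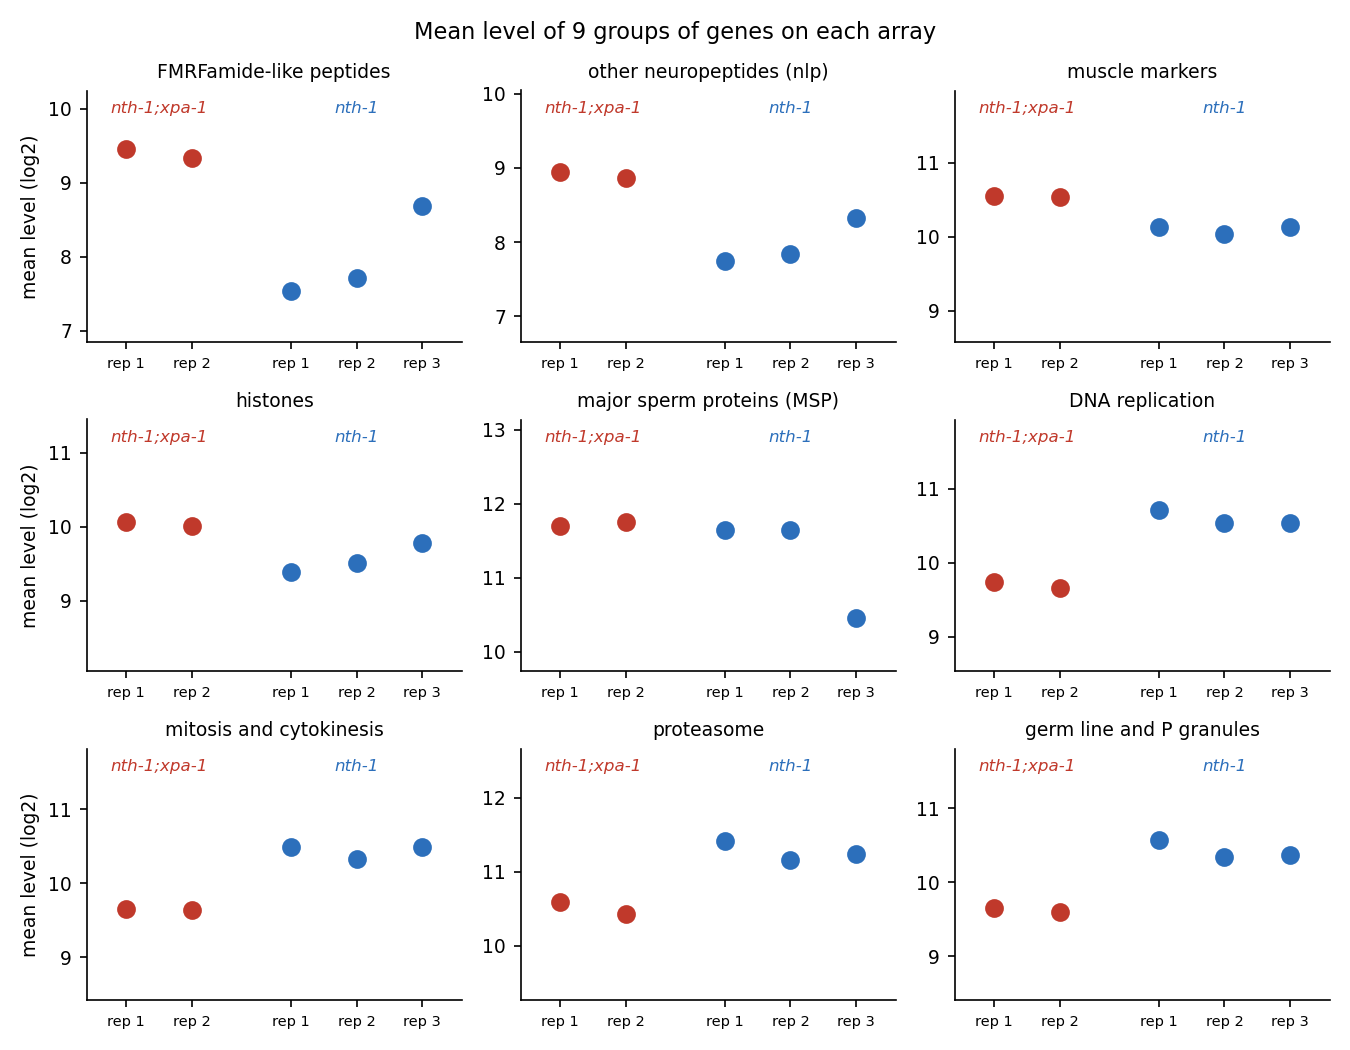
Mean level (log2, vertical axis, the same span in each panel) of 9 groups of genes on each nth-1;xpa-1 array (red) and each nth-1 array (blue). Neuropeptide genes of nth-1 replicate 3 lie between the other arrays, major sperm protein genes are low in that array alone, and replication, mitosis, proteasome and germ line genes are lower on both nth-1;xpa-1 arrays than on all 3 nth-1 arrays.

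Of 35 muscle markers 10 rose and 1 fell (median 0.41), and the share of 28.6% that rose was near the 22.9% of all genes. The largest rises were those of the troponin genes tni-3 and tnt-3. tni-3 was 10.91 and 10.88 in nth-1;xpa-1, against 8.67, 8.56 and 7.71 in nth-1 (2.58, SE 0.29, limma adjusted p = 6.8e-04), and tnt-3 rose by 1.79. The paramyosin gene unc-15 was 13.38 and 13.46 in nth-1;xpa-1, against 12.39, 12.08 and 11.95 in nth-1 (1.28, adjusted p = 0.0013). The body wall myosin gene unc-54 rose by 1.21 (adjusted p = 0.029), a call lost on leaving out nth-1 replicate 2, an N2 array or an array of the double mutant (adjusted p up to 0.135). Of 17 pharynx markers 9 rose (52.9%) and 1 fell. The pharyngeal myosin gene myo-1 was 10.38 and 10.46 in nth-1;xpa-1, against 8.69, 8.71 and 9.55 in nth-1, a rise of 1.44. The other probe set of myo-1 gave 0.26, and the myo-1 call was lost with the BioC block. The muscle count was 4 and 3 without nth-1;xpa-1 replicate 1 and replicate 2, 4 with the BioC block and 17 without nth-1 replicate 3. For the pharynx it was 5, 4, 3 and 10 in the same order.

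Sperm genes gave a mixed picture. The 25 genes of major sperm proteins, the cytoskeletal proteins that drive crawling of nematode sperm, averaged 11.7 and 11.8 in nth-1;xpa-1, against 11.6, 11.6 and 10.4 in nth-1, so that nth-1 replicate 3 alone was low. All 25 differences were above 0 (median 0.5) but none passed in limma, none at an unadjusted p under 0.05 either. Leaving out nth-1 replicate 3 alone gave a median of 0.11, and none passed. The BioC block put all 25 higher before adjustment (p under 0.05) and none after it (median 1.96). With nth-1 replicate 3 left out as well, all 25 passed as rises (median 1.56). The block leans on the 2 xpa-1 arrays, where the 25 genes averaged 10.13 (replicate 1, high BioC) and 11.6 (replicate 2, low BioC). These genes are near-identical copies, so the 25 values are not separate measurements. Of 59 other sperm genes 20 rose (33.9%, against 22.9% of all genes) and 1 fell (median 0.53). In this list spe-46, needed for sperm development, was 9.73 and 9.61 in nth-1;xpa-1, against 7.89, 8.03 and 7.2 in nth-1 (1.96, limma adjusted p = 0.0033). The count was 7 and 8 without nth-1;xpa-1 replicate 1 and replicate 2, 6 with the BioC block and 24 without nth-1 replicate 3.

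Stress, detoxification and defence genes changed in both directions, as did genes in general (22.9% rose and 14.6% fell). Of 12 small heat shock protein genes 6 rose (50%) and 2 fell (16.7%). hsp-16.41 was 8.43 and 8.45 in nth-1;xpa-1, against 4.81, 4.83 and 6.58 in nth-1 (3.03, SE 0.5, limma adjusted p = 0.0026), hsp-16.2 rose by 2.9 and hsp-12.6 by 1.8, and none of the 3 passed with the BioC block (adjusted p = 0.2, 0.18 and 0.15). Of 45 glutathione transferase genes 10 rose and 10 fell (22.2% each), with the rise share near that of all genes. Here gst-3 was 9.37 and 9.44 in nth-1;xpa-1, against 6.43, 6.38 and 7.04 in nth-1 (2.79, limma adjusted p = 1.4e-04). By contrast gsto-1, an omega class enzyme of the oxidative stress response, was 9.54 and 9.51 against 12.4, 12.23 and 12.17 (-2.74, limma adjusted p = 7.0e-05). gst-4, a common reporter of the SKN-1 response, was 6.89 and 7.09 in nth-1;xpa-1, against 8.15, 8.37 and 7.96 in nth-1 (-1.17, adjusted p = 0.0014), and it did not pass with the BioC block (adjusted p = 0.071). Among 28 antioxidant genes 5 rose (17.9%) and 6 fell (21.4%), with gpx-6, a glutathione peroxidase gene, up by 2.87. Of 64 glucuronosyltransferase genes 21 fell (32.8%) and 11 rose (17.2%). Of 220 C-type lectin genes 48 rose and 25 fell (11.4%), where the rise share of 21.8% was near the 22.9% of all genes. Rises and falls of the lectins numbered 32 each under quantile normalization, and 7 and 11 with the BioC block. The invertebrate lysozyme gene ilys-5 was 11.08 and 11 in nth-1;xpa-1, against 13.47, 13.51 and 12.99 in nth-1 (-2.28, adjusted p = 1.2e-04).

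Of 74 genes of lipases, fasting and beta-oxidation 29 fell (39.2%, against 14.6% of all genes) and 9 rose, with a median of -0.19. Besides lipl-3, the acyl-CoA dehydrogenase gene acdh-1 was 8.11 and 8.21 in nth-1;xpa-1, against 11.09, 10.61 and 9.98 in nth-1 (-2.4, SE 0.3, limma adjusted p = 0.0010), and acs-22, for an acyl-CoA synthetase, fell by 2.13, while acs-16, of the same family, was 10.36 and 10.18 against 8.1, 8.26 and 8.37 (2.03, adjusted p = 2.4e-04). Under the BioC block 2 of the 74 fell and 5 rose, and the median was 0.02. Without nth-1;xpa-1 replicate 2 17 fell and 2 rose, without its replicate 1 20 and 1, and without nth-1 replicate 3 31 and 17. Of 24 intestine markers 9 fell (37.5%) and 4 rose (16.7%, against 22.9% of all genes). Their differences ran from -1.88, for the gut esterase gene ges-1, to 1.98. With the BioC block none fell and 2 rose in limma (median 0.0975), while 3 were lower and 6 higher at an unadjusted p under 0.05. Of 254 nuclear hormone receptor genes 58 rose, a share of 22.8% that was near that of all genes, and 14 fell (5.51%). nhr-103 rose by 2.88. The receptor rises numbered 12 with the BioC block, 24 and 27 without nth-1;xpa-1 replicate 1 and replicate 2, and 91 without nth-1 replicate 3.

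In the wild-type background loss of xpa-1 went with the opposite direction for many genes. The xpa-1 single mutant against N2 uses none of the 5 arrays, although the spread is estimated in the same fit. It called 575 genes higher (3.36%) and 1287 lower (7.52%). Of the 1418 genes called in both contrasts, 22.1% of those called in the nth-1 background and 76.2% of those called in N2, 942 rose in nth-1;xpa-1 and fell in xpa-1, and 431 fell in nth-1;xpa-1 and rose in xpa-1. The remaining 45 went the same way, 9 up and 36 down. All 1373 genes of opposite direction passed the test of the difference itself (the interaction). Genes called with opposite signs in 1 fit nearly must pass it, so this adds no evidence of its own. Over all probe sets the interaction called 8888 (39.4%), and 41 of the 45 genes of the same direction did not pass it. Those 45 included xpa-1 itself, at -4.61 in nth-1;xpa-1 against nth-1 and -4.45 in xpa-1 against N2, and mks-6, at 3.27 and 4.21. In the flp list the medians were 1.36 in the nth-1 background and -1.03 in N2, for replication -0.8 and 0.44, and for the proteasome -0.85 and 0.42. Without xpa-1 replicate 2, so that xpa-1 and N2 shared the high BioC level, 441 genes were opposite and 25 alike. With the BioC block there were 263 and 4, and the fewest were 139 and 3, without N2 replicate 1.

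**Figure D5:**
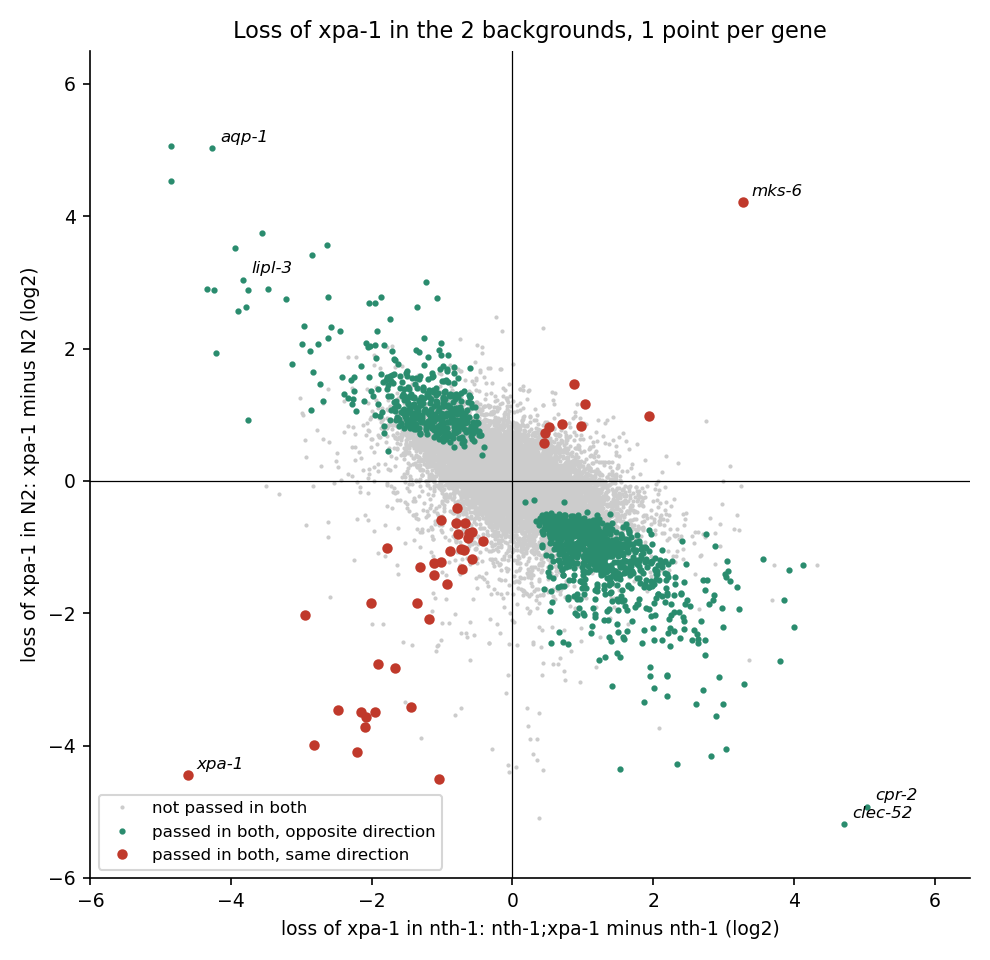
Loss of xpa-1 in nth-1 (nth-1;xpa-1 minus nth-1, log2, horizontal axis) and in the wild type (xpa-1 minus N2, log2, vertical axis) for 17118 genes, 1 point each. Genes that passed both tests in opposite directions (1373, green) fill the upper left and lower right, and the 45 that passed both in the same direction (red) include xpa-1 and mks-6.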

How the data were processed

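The deposited table holds log2 expression values of 22625 probe sets on 9 arrays. Per the methods, the authors used dChip, with invariant-set normalization and a model of the perfect-match probes only, for each array of the C. elegans Genome Array; its version is not given in the sources used here. The 77 control probe sets were left out. GEO's platform annotation gave 1 symbol to 20766 of the others, several to 887 and none to 895, and 20701 gene IDs matched RefSeq (WBcel235), used for names and gene order only. The probe set with the highest mean over 9 arrays stands for a gene, since probes of 1 gene can differ.

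The contrasts came from limma 3.58.1 under R 4.3.3 (lmFit, then eBayes with a variance trend), in 1 fit of 9 arrays with 5 residual degrees of freedom and Benjamini-Hochberg adjustment over 22548 probe sets, at a threshold of 0.05. All arrays share the estimate of the spread. Ratios are of mean unlogged values. The fit was tested on simulated data with independent noise on each array. It recovered 27 of 100 changes of 1.8-fold and 83 of 100 changes of 4-fold, with 4 false calls. The simulation held no BioC level and no outlying array. It changed 100 probe sets at each fold among 22548, while 36.7% were called on the real arrays. The adjustment is stricter where few probe sets change, so recovery and false calls on the real arrays may differ. The methods state 3 replicates per strain, while the deposited table has 2 of nth-1;xpa-1.

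The members and lists were chosen with earlier results of these data known. Lists are described by their counts and medians and were not tested as sets. Named genes were xpa-1 and nth-1, the 10 largest rises and falls with a symbol that passed with groups not overlapping, up to 4 members that passed in each direction of a list, the 5 largest interactions each way, and genes of the study's repair and kinase lists. Exceptions are marked in the text. Other settings tried were no variance trend, an offset of 32 on the unlogged value, quantile normalization, only probe sets with a mean past the 40th percentile, blocks for the BioC level (a grouping found in the data) or the replicate number, a fit of the 5 arrays alone, and each array left out. Leaving out nth-1 replicate 3 together with the BioC block, or with the other strains, was added after seeing the data. Without a promoter sequence table, the planned motif count was not made. Python 3.11.15 with matplotlib 3.10.9 made the figures.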

Additional observations from a re-analysis of the deposited data

Results flagged for a closer look

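The effect of losing xpa-1 differed between the nth-1 and the N2 background for 8888 probe sets by the interaction test in limma (adjusted p under 0.05), 39.4% of those tested. The 5 genes with the largest positive interaction were cpr-2 (9.96 on the log2 scale, 5.04 in nth-1 and -4.92 in N2), clec-52 (9.90, 4.71 and -5.19), hsp-16.41 (7.09, 3.03 and -4.06), pals-38 (6.97, 2.81 and -4.16) and icmt-1 (6.62, 2.34 and -4.27). The 5 with the largest negative one were aqp-1 (-9.31, -4.28 in nth-1 and 5.03 in N2), cpr-8 (-7.47, -3.95 and 3.52), folt-2 (-7.25, -4.35 and 2.91), hrg-7 (-7.12, -4.24 and 2.88) and lipl-3 (-6.87, -3.83 and 3.04). The part of the BioC level in these differences was not tested, beyond the counts with the BioC block, which kept 1429 probe sets. Groups of 2 and 3 arrays are too small for a test of single outlying arrays.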

How the results depend on the processing

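The count of 8277 probe sets for nth-1;xpa-1 against nth-1 became 1077 with the BioC level as a block and, in the other direction, 12913 when nth-1 replicate 3 was left out and only the other 4 arrays of the pair were fitted, an alternative chosen after seeing the data. Leaving out 1 array at a time gave 3293 to 11396 calls, the lowest for nth-1;xpa-1 replicate 2 (3293) and then its replicate 1 (3529). The interaction count of 8888 became 1429 with the BioC block and ranged from 5858 (without N2 replicate 1) to 12021 over the arrays left out. A ratio of at least 1.8 was reached by 5170 probe sets, by 4948 to 5856 with 1 array left out, and a ratio of at least 4 by 400. Of the calls 59.1% were rises, against 50.1% under quantile normalization and 46.7% among probe sets above the 40th percentile. In the pair, equal replicate numbers gave correlations of deviations of 0.03 and -0.02. The deviations of 2 nth-1;xpa-1 arrays mirror each other, so this check cannot tell whether arrays of equal number were prepared together. The replicate block gave 10711 calls and 11349 for the interaction. The nth-1 transcript, which did not pass, changed sign under quantile normalization (0.015), with the BioC block (0.57) and with the block without nth-1 replicate 3 (0.50). The number of arrays and the spread of nth-1 replicate 3 limit the precision.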

Other observations

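By chromosome, the share of genes that fell in nth-1;xpa-1 against nth-1 was lowest on X (7.88% of 2349 genes) and highest on III (20.4% of 2250) and I (19.6% of 2469). On X 24.9% rose, on V 25% of 4317, on I 19.3% and on III 20.3%. The median difference was 0.24 on X, 0.21 on V and 0.04 on I and III. On chromosome II 23.9% rose and 15.2% fell, and on IV 22.1% and 16.1%. These shares are a description of the calls above, with no test, and the grouping was chosen after the values were seen.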
